A study of Mus musculus with 14 samples.

Results

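Superior mesenteric arteries of mice were ranked by the read count of Ucp1, and the 7 libraries with the most Ucp1 were set against the 7 with the least, out of 14 libraries in all. Ucp1 encodes uncoupling protein 1, and the share of each library taken by Ucp1 chose the members, so the Ucp1 levels and every difference between the 2 sets are given as a description and not as a test. The mice were 8 weeks old on a C57BL/6 background. The labels give 4 groups, namely wild-type mice (Drp1 +/+, WT) and Drp1 flox/+ mice (KO), each kept under normal conditions or put through ischemia, with 3 WT and 4 KO libraries in either state. Drp1, the product of Dnm1l, is the dynamin-related GTPase that divides mitochondria. The KO mice are heterozygous and keep a working allele, and the study's methods describe a CRISPR/Cas9 frameshift allele, whereas the labels write flox. No promoter or cell type that would limit the change is named for them. The labels of the ischemia libraries give a time of 2 h, the study's text gives a longer one, and its methods describe ischemia by blood loss through the femoral artery for rats and then apply it to the KO mice too. The genotype and ischemia groups are the study's own groups and were not used to choose the libraries.

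Ucp1 is the proton channel of the inner mitochondrial membrane by which brown and beige fat burn fuel as heat. Arteries of the mouse lie in perivascular fat, and a dissected artery can carry some of that fat along with smooth muscle, endothelium and adventitia. Brown adipocytes are packed with mitochondria, import and oxidize fatty acids, and are fed by a dense capillary bed, so the genes of those functions are among the ones they are known for.

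Every library had Ucp1 counts well above the depth limit, and the level varied 94.1-fold between the highest and the lowest library. Among the 7 high-Ucp1 libraries, the level was 3843 CPM (counts per 1000000 of the library's total) in KO normal replicate 4, 3413 in WT normal replicate 2, 3142 in KO ischemia replicate 2, 2985 in KO ischemia replicate 4, 2892 in KO normal replicate 2, 2687 in KO ischemia replicate 3 and 1264 in KO normal replicate 3. Among the 7 low-Ucp1 libraries, it was 720.4 CPM in WT ischemia replicate 2, 661 in WT normal replicate 3, 625 in KO ischemia replicate 1, 571 in KO normal replicate 1, 299 in WT ischemia replicate 3, 69.7 in WT ischemia replicate 1 and 40.8 in WT normal replicate 1. The libraries on either side of the line were KO normal replicate 3 and WT ischemia replicate 2, which differed 1.75-fold. The gap between KO normal replicate 3 and the next library above it was wider than the step across the line, so the line does not fall at the largest gap of the series. The gene lies on chromosome 8 of the GRCm38 build (chr8:83290352-83298452, plus strand).

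**Figure D1:**
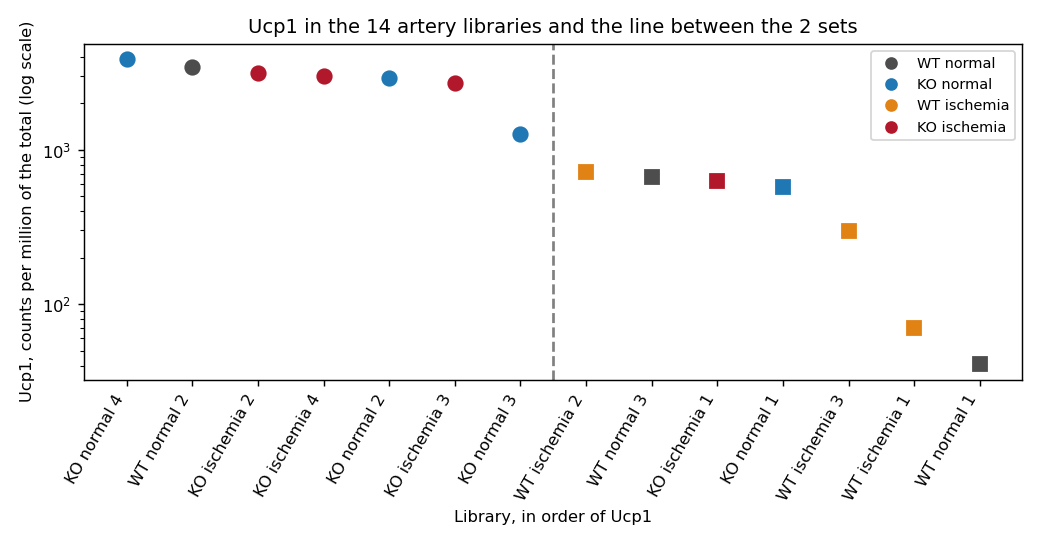
Ucp1 in CPM of the library total (log axis) for the 14 libraries in descending order, colored by label group. Circles are the 7 high-Ucp1 and squares the 7 low-Ucp1 libraries, and the dashed line separates 1264 CPM in KO normal replicate 3 from 720.4 CPM in WT ischemia replicate 2.

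The 2 sets were not balanced over the study's groups. The high-Ucp1 set held 3 KO normal, 3 KO ischemia and 1 WT normal library, and 0 of the WT ischemia libraries. The low-Ucp1 set held 1 KO normal, 1 KO ischemia, 2 WT normal and 3 WT ischemia libraries. Of the 8 libraries of KO mice 6 were thus high, and of the 6 of WT mice 5 were low. Replicate numbers of the labels were uneven too, since 4 of the 4 libraries numbered 1 were low and 2 of the 2 numbered 4 were high. The high-against-low difference was fitted beside additive terms for ischemia and genotype. These terms adjust for each label alone and not for the combination of both, and 0 of the WT ischemia libraries were high. Few libraries were left to separate the terms, because in WT mice 1 library alone stood for the high set.

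Total counts were 32194665 to 40255851 per library in the high set and 25612646 to 36795661 in the low set. Transcripts of the mitochondrial genome took 11.1% to 25.1% of the counts in the high set and 6.46% to 19.9% in the low set, with overlapping ranges. WT normal replicate 3 was read in sequencing lane 1 and the other 13 libraries in lane 8. Dnm1l, the targeted gene (chr16:16312230-16358959 in GRCm38, minus strand), was at 54.8 to 90.9 CPM after scaling by TMM (the trimmed mean of M-values) in the low set, with a median of 72.6, and at 57.9 to 76.0 CPM in the high set, with a median of 62.2. The fitted high-minus-low difference of Dnm1l was −0.03 on the log2 scale (SE 0.14). Between genotypes, Dnm1l differed by −0.20 (SE 0.14) in KO against WT libraries with the Ucp1 term in the fit and by −0.22 (SE 0.12) without it, and neither passed the test, so the counts of this gene do not separate the labels of genotype.

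Of 17692 genes tested besides Ucp1, 1113 (6.29%) were called higher and 542 (3.06%) lower in the high-Ucp1 libraries. A gene was called when edgeR's quasi-likelihood test gave a Benjamini-Hochberg false discovery rate (FDR) under 0.05 and the fitted fold change exceeded 1.5. The ranges of the 2 sets did not overlap for 170 genes (0.961%) that were higher and 158 (0.893%) that were lower in every high library. Because the libraries were chosen by a measured transcript, these shares are the background for the lists that follow, and nothing is read from them. In bulk RNA of this kind, fewer cells of a type and less RNA per cell cannot be told apart, and CPM values are shares of a library.

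The calls rested on single libraries. Without WT normal replicate 2, the only WT library of the high set, 1 gene was called in place of 1655, namely Gm9616 (log2 difference −1.53, SE 0.19, adjusted p = 0.0393 by edgeR), which was named after its value was seen, although 3055 of 18553 genes had an unadjusted p under 0.05. Leaving out KO normal replicate 1 left 288 called genes, leaving out KO ischemia replicate 4 left 578, leaving out WT ischemia replicate 3 left 1083 and leaving out KO ischemia replicate 3 left 1086. The largest count was 2264, without KO normal replicate 3, the library just above the line. Within the KO libraries alone, 6 high against 2 low, 0 genes were called by edgeR and 3524 had an unadjusted p under 0.05. Of the called genes that could be tested again, 0 changed sign in KO libraries alone (1627 genes) or with any single library left out (1650 to 1655 genes). These fits reuse the libraries that gave the calls, so the kept signs are not separate support for a direction. Because the calls rested on single libraries, the medians of some lists are also given within the label groups further below. The fitted high-minus-low differences of single genes come from all 14 libraries, and sizes varied between the groups. The median of genes shared by brown and white adipocytes, for example, was 1.51 in the fit. Within groups it was 3.05 among WT normal, 0.64 among KO normal and 1.33 among KO ischemia libraries. In the KO groups the direction can be described without the WT library.

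**Figure D2:**
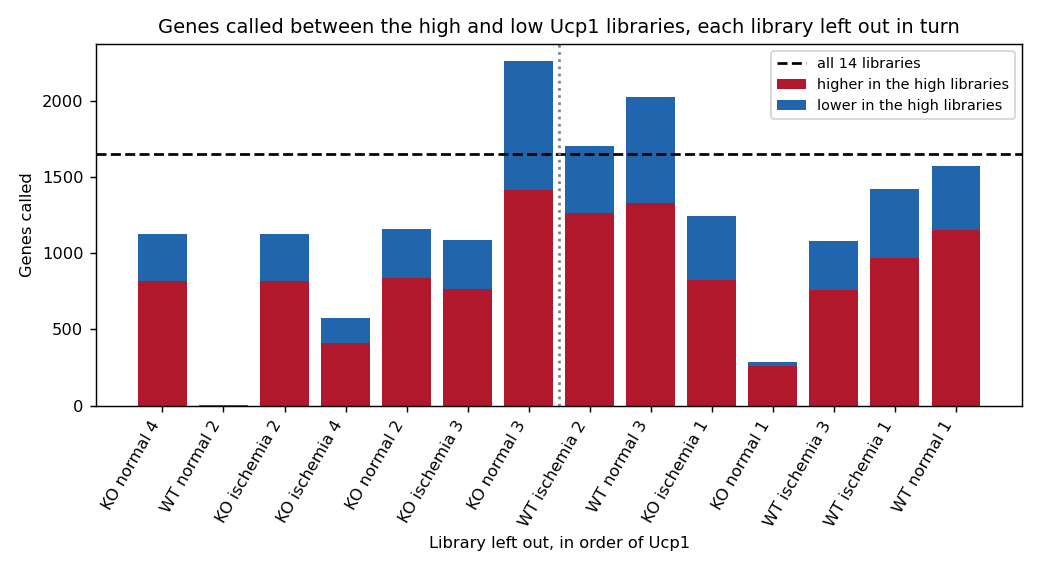
Number of genes called between the high-Ucp1 and low-Ucp1 libraries (bars, stacked by direction) when the library named on the x axis was left out, with libraries in order of Ucp1. The dashed line is the count of 1655 with all 14 libraries, and the bar for WT normal replicate 2 stands at 1.

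Genes of brown adipocytes were higher in the high-Ucp1 libraries. Of 23 listed, 22 were tested, 14 were called higher and 0 lower, and the median log2 difference was 1.84, against 0.02 over all genes tested. Cidea, a lipid droplet protein of brown fat, was at 395 to 1985 CPM (median 1027) in the high set and at 97.8 to 834 CPM (median 304) in the low set. The ranges overlapped, with WT normal replicate 3 at the top of the low set. Its log2 difference was 1.76 (SE 0.48). Slc27a2, a fatty acid transporter and acyl-CoA synthetase, was at 49.7 to 286 CPM (median 76.1) in the high set and at 3.63 to 40.5 CPM in the low set, with no overlap and a difference of 2.51 (SE 0.58). Elovl3, the fatty acid elongase of cold-exposed brown fat, was at 62.0 to 248 CPM in the high set and at 0.030 to 35.7 CPM in the low set. Its sets did not overlap either, but with a difference of 2.78 (SE 0.85) it missed the FDR limit. Bmp8b, a thermogenic growth factor, had the list's largest difference, 4.32 (SE 2.30), at under 3 CPM in every library, and was not called.

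The list did not move as a block. Cox7a1, Cox8b, Fabp3, Dio2, Otop1, Kcnk3, Pank1, Plin5, Ppargc1b, Letmd1, Ebf2 and Gk were the other genes called higher, with log2 differences from 1.42 for Gk, a glycerol kinase, to 2.44 for Fabp3, a fatty acid binding protein. Prdm16, a regulator of brown fat identity, was at 62.9 to 110 CPM in the high set and 82.4 to 133 CPM in the low set, and its difference of −0.46 (SE 0.18) was not called. Ppargc1a, the coactivator that drives mitochondrial biogenesis, differed by 1.83 (SE 0.80) and was not called, with one library at 390 CPM and a high-set median of 39.1.

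Genes shared by brown and white adipocytes followed the same order. Of 25 tested, 15 were called higher and 0 lower, with a median of 1.51. Adipoq, the hormone adiponectin, was at 271 to 1392 CPM (median 328) in the high set and at 49.1 to 357 CPM (median 136) in the low set, a difference of 1.69 (SE 0.43). Pck1, the enzyme that supplies glycerol for triglyceride in fat, was at 771 to 4049 CPM (median 1661) against 156 to 793 CPM (median 504), with a difference of 2.06 (SE 0.43). Dgat2, which completes triglyceride synthesis, differed by 1.93 (SE 0.54). Gpd1, which makes glycerol 3-phosphate, had a difference of 1.85 (SE 0.71) and was not called. Summed over the list, the level was 13189 to 55946 CPM in the high set and 3961 to 14134 CPM in the low set. WT normal replicate 2 held the highest sum and KO normal replicate 4 the next, at 32566 CPM.

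White adipocyte genes were not called in either direction. Of 9 listed, 7 were tested, and the median was 0.50. With 6.29% of all genes called higher and 3.06% lower, 0 of 7 is near the background and is not read as a contrast with brown fat. Lep, the hormone leptin, was at 0.58 to 11.7 CPM in the high set and at 0 to 18 CPM in the low set, with a difference of 0.36 (SE 1.13). Retn, resistin, differed by 0.71 (SE 0.43) and Hoxc8 by 0.80 (SE 0.58), and Tcf21, a transcription factor of white fat precursors, by 2.17 (SE 2.04) at under 1 CPM. Genes of lipogenesis also spread widely. Of 14 tested, 1 was called, Gpam, the first enzyme of glycerolipid synthesis, with a difference of 1.74 (SE 0.41). Fasn, fatty acid synthase, was at 2509 to 18112 CPM in the high set and 184 to 10099.7 CPM in the low set, and its difference of 0.87 (SE 1.08) was smaller than its error. The summed level of the list was 40239 CPM in WT normal replicate 3, a low-Ucp1 library, and 13588 CPM in WT normal replicate 2, a high-Ucp1 library. The order of lipogenesis was thus not the order of Ucp1 in those WT libraries. With Ucp1 as a continuous term in place of the 2 sets, 14 of the 14 lipogenesis genes were called higher, with a median of 2.13, and among KO libraries alone the median was 1.45. Agpat2 and Thrsp, with differences of 1.64 (SE 0.65) and 1.57 (SE 0.69), were not called.

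The nuclear genes of mitochondrial fuel use formed the most complete block. Of 20 genes of fatty acid oxidation, 18 were called higher, with a median of 1.64. Slc25a20, the carrier that brings acylcarnitine into mitochondria, was at 118 to 484 CPM (median 252) in the high set and at 28.3 to 129 CPM (median 70.4) in the low set, a difference of 1.91 (SE 0.38). Cpt2, which releases the acyl group inside the mitochondrion, differed by 1.89 (SE 0.44) and Hadhb, a subunit of the trifunctional protein, by 1.89 (SE 0.51). Acadvl and Acsl5 were the members not called, at 1.15 and 1.31. Of 22 genes of pyruvate dehydrogenase and the citric acid cycle, 19 were called higher, with a median of 1.47. Among them were Cs, citrate synthase, at 428 to 1740 CPM against 183 to 904 CPM, with a difference of 1.40 (SE 0.38), and Suclg1, Idh3a and Sucla2 at 1.87, 1.86 and 1.73. The 3 not called were Pdha1, Pdhb and Pdhx, all subunits of pyruvate dehydrogenase.

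Of 73 nuclear genes of oxidative phosphorylation that were tested, 62 were called higher and 0 lower, with a median of 1.25. Atp5a1, a catalytic-head subunit of ATP synthase, was at 703 to 2554 CPM (median 1755) in the high set and at 314 to 1299 CPM (median 658) in the low set, a difference of 1.47 (SE 0.37). Uqcrfs1, the Rieske protein of complex III, differed by 1.71 (SE 0.39) and Cox5a, of complex IV, by 1.68 (SE 0.43). Cox6a2, the striated-muscle isoform of a complex IV subunit, had a fitted difference of 6.82 (SE 3.47) that came from few libraries and was not called. Its level was 232 CPM in KO ischemia replicate 4, 25.8 in KO ischemia replicate 3 and 11.5 in KO normal replicate 4, and at most 1.03 CPM in the other libraries. Atp5g2, Atp5g1 and Atp5g3, which encode the same c-ring subunit, were at −0.16, 0.57 and 0.79 and were not called.

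Genes of the mitochondrial ribosome moved less. Of 77 tested, 42 were called higher and 0 lower, with a median of 0.79 and single genes from −0.25 to 1.56. Mrpl16 differed by 1.56 (SE 0.29), Mrps36 by 1.45 (SE 0.37), Mrpl12 by 1.44 (SE 0.30) and Mrpl1, which was not called, by 0.56 (SE 0.28). The 13 protein genes of the mitochondrial genome itself, which are transcribed inside the organelle, were not called, and their median was 0.33. ND3, a complex I subunit, had the largest difference among them, 0.81 (SE 0.26), ahead of ATP8 at 0.67 (SE 0.44) and COX3 at 0.65 (SE 0.29), while ATP6 was at 0.37 (SE 0.30). Their summed level was 108535 to 290551 CPM in the high set and 61406 to 206487 CPM in the low set. Proteins of the cytosolic ribosome had a median of −0.08 over 79 tested genes, and 1 was called, Rps27l, at 0.81. Rpl10 was at −0.27 (SE 0.14), and the largest differences, of Rpl3l, Rps29 and Rps28, were those of genes at under 9 CPM in every library.

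**Figure D3:**
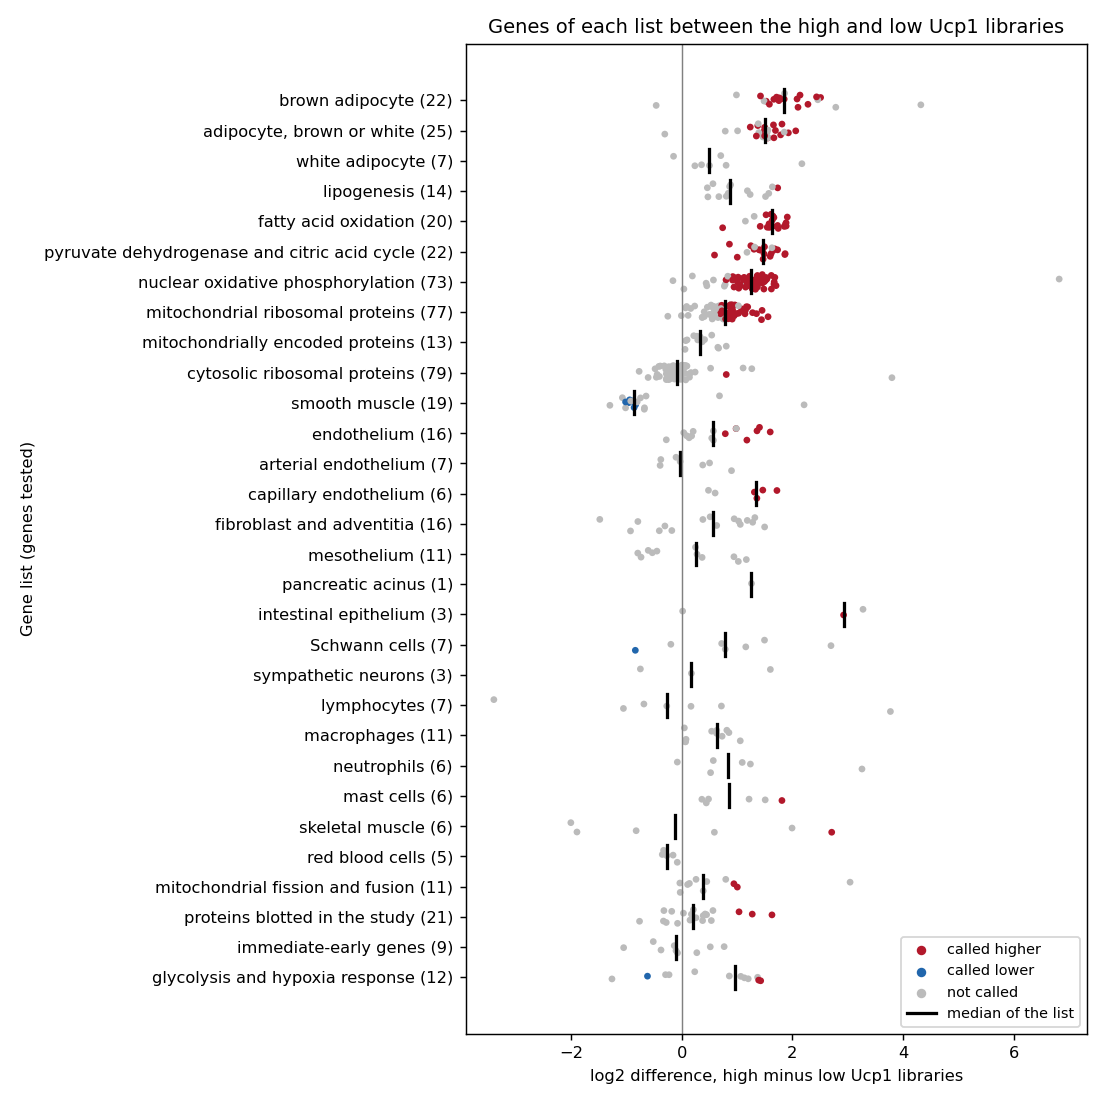
Fitted log2 difference, high-Ucp1 minus low-Ucp1 libraries, of each tested gene (points) in 30 gene lists, with the number tested in parentheses. Red points were called higher, blue points lower and grey points not called, and black bars are list medians, which stand at 1.84 for brown adipocyte, 1.64 for fatty acid oxidation and −0.86 for smooth muscle genes.

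Contractile genes of smooth muscle, the main cell of the artery wall, were lower in the high-Ucp1 libraries. Of 19 tested, 7 were called lower and 0 higher, with a median of −0.86. Myh11, smooth muscle myosin, was at 2726 to 7895 CPM (median 6346) in the high set and at 7643 to 13667 CPM (median 8939) in the low set, a difference of −0.94 (SE 0.26). Cnn1, Mylk, Myl9, Smtn, Tpm2 and Ppp1r14a were the others called lower, between −0.83 and −1.01. Acta2, smooth muscle actin, was at 3357 to 15609 CPM against 9559 to 18598 CPM, and with a difference of −0.99 (SE 0.30) it missed the FDR limit. Myocd, the coactivator of the contractile program, was at −1.30 (SE 0.43) and Synpo2 at −1.07 (SE 0.36), and neither was called. The summed level of the list was lowest in WT normal replicate 2, at 12077 CPM, and KO normal replicate 4, at 18088 CPM, the same pair that held the highest adipocyte sums. Pln, a regulator of the calcium pump that striated muscle also uses, went the other way, with 272 CPM in KO ischemia replicate 4, 40.35 in KO ischemia replicate 3, 16.4 in KO normal replicate 4 and at most 6.87 CPM elsewhere. These were the libraries with the most Cox6a2 as well.

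Endothelial genes split by type. Of 16 general endothelial genes, 6 were called higher and 0 lower, with a median of 0.57. Kdr, the main receptor for VEGF-A, was at 85.4 to 291 CPM (median 121) in the high set and at 31.0 to 99.5 CPM (median 54.2) in the low set, a difference of 1.60 (SE 0.29). Flt1, another VEGF receptor, and Tek, the angiopoietin receptor, differed by 1.41 (SE 0.30) and 1.36 (SE 0.18). Cdh5, Tie1 and Emcn were the other genes called. Pecam1, present in endothelium of every vessel type, was at 348 to 552 CPM against 299 to 746 CPM and differed by 0.09 (SE 0.28). Of 6 genes of capillary endothelium, 4 were called higher, with a median of 1.34. Gpihbp1, which carries lipoprotein lipase onto the capillary surface, differed by 1.31 (SE 0.33), Car4 by 1.36 (SE 0.30), Rgcc by 1.72 (SE 0.36) and Tcf15 by 1.47 (SE 0.40). Of 7 genes of arterial endothelium, 0 were called, which is near the share over all genes tested. Their median of −0.03 changed sign under several alternatives. Gja5, a gap junction protein of arteries, was at 0.38 (SE 0.46), Dll4 at 0.90 (SE 0.29), Sox17 at 0.50 (SE 0.37) and Bmx at −0.39 (SE 0.33). The difference between the capillary and the arterial list was not tested.

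**Figure D4:**
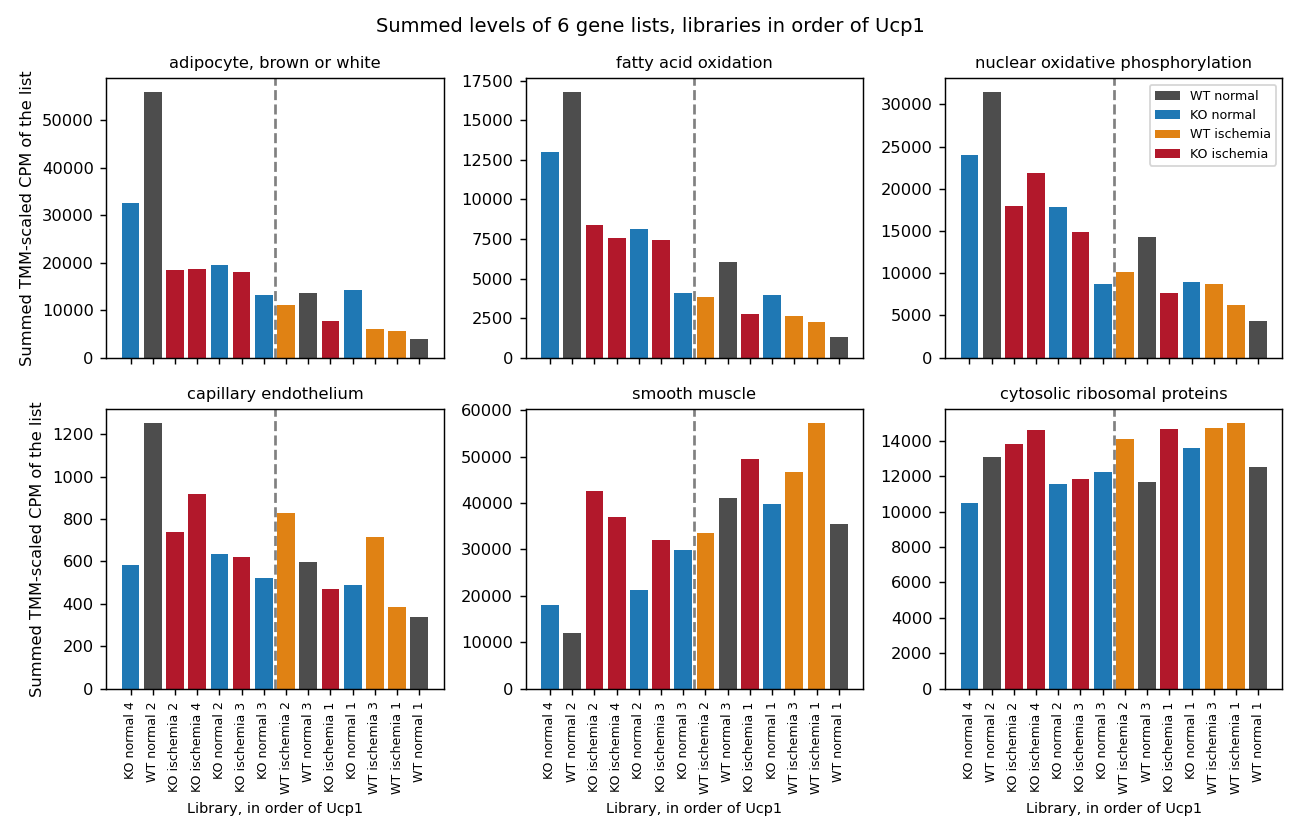
Summed TMM-scaled CPM of 6 gene lists in the 14 libraries, in descending order of Ucp1 from left to right and colored by label group, with the dashed line between the high-Ucp1 and low-Ucp1 libraries. WT normal replicate 2 has the highest adipocyte sum (55946 CPM) and the lowest smooth muscle sum (12077 CPM).

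The direction of the list medians that follow was the same inside each label group that held both kinds of library. The same Ucp1 rank placed these libraries, so the shared direction is not a separate check. Brown adipocyte genes had a median high-minus-low difference of log2 CPM of 2.74 among WT normal, 1.23 among KO normal and 1.77 among KO ischemia libraries. Fatty acid oxidation genes were at 2.49, 1.01 and 1.54 in the same order, and nuclear oxidative phosphorylation genes at 1.85, 0.72 and 1.10. Smooth muscle genes were at −1.63, −0.72 and −0.42, and capillary endothelium genes at 2.46, 0.57 and 1.08. The difference was widest in WT normal libraries for each of these lists, where 1 high library stood against 2 low ones. Either KO group had 3 high libraries against 1 low one, so its values rest on that low library. Without WT normal replicate 2, the fitted medians were 1.70 for brown adipocyte, 1.39 for fatty acid oxidation, 0.84 for capillary endothelium and −0.52 for smooth muscle genes. With replicate number as a further block they were 0.79, 0.74, 0.64 and −0.58, and 0 genes were called. All libraries numbered 1 or 4 lay in a single Ucp1 set, and high and low libraries shared a number only among the 8 libraries numbered 2 or 3. Several medians changed sign under the block, among them lipogenesis (from 0.88 to −1.05), fibroblast and adventitia (−0.43), white adipocyte (−0.27), macrophage (−0.08) and glycolysis and hypoxia genes (−0.08). With the 4 label groups as terms in place of ischemia and genotype, fewer genes were called, with 3 brown adipocyte, 2 fatty acid oxidation and 0 citric acid cycle, nuclear oxidative phosphorylation, capillary endothelium or smooth muscle genes called.

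Markers of other cells and tissues that could come with the artery were mostly not called. Over all genes tested, 6.29% were called higher and 3.06% lower. In lists this short, 0 calls is near that share and is not read as a result about these cells. Fibroblast and adventitia genes had a median of 0.57 over 16 genes with 0 called, from Eln, elastin, at −1.48 (SE 0.68) to Lum, lumican, at 1.499 (SE 0.99). In between, Col1a1 was at −0.18 (SE 0.82) and Clec3b at 1.32 (SE 0.91). Macrophage genes had a median of 0.63 over 11 genes, all of them above 0 and 0 called, but −0.49 among WT normal libraries, and the summed level was 266 to 1058 CPM against 124 to 689 CPM. Adgre1, C1qa and Lyz2 were at 1.06, 0.85 and 0.82. Mast cell genes had a median of 0.85 over 6 genes, of which 1 was called, Hdc, the enzyme that makes histamine, at 1.81 (SE 0.52). The summed mast cell level was 40.8 to 87.2 CPM in the high set and 16.1 to 35.5 CPM in the low set, the only list of the 30 whose sums did not overlap. Cma1, a mast cell chymase, did not overlap either, with a difference of 1.51 (SE 0.90), and Cpa3 was at 1.22 (SE 0.48).

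For the remaining lists, mesothelium had 0 of 11 called (median 0.25), with Msln, Upk1b and Lrrn4 at 1.02, 1.17 and 0.94. Lymphocytes had 0 of 7 (median −0.27), with Cd8a, Cd79a and Cd3e at under 10 CPM in every library. Neutrophils had 0 of 6 (median 0.83), sympathetic neurons 0 of 3 (median 0.18) and red blood cells 0 of 5 (median −0.27). Among Schwann cell genes, 1 of 7 was called lower, Prx, at −0.84 (SE 0.19), against a median of 0.79. The intestinal list had 3 of 6 genes tested and 1 called higher, Vil1, at 1.35 to 4.85 CPM against 0.18 to 1.43 CPM, while Lgals4 was at 0.02 (SE 0.37). Of 9 genes of the pancreatic acinus, Cela1 alone passed the filter on low counts and was not called, and 4 had 0 counts in every library. Skeletal muscle genes had a median of −0.12 over 6 genes, which changed sign under several alternatives. Myl1, a myosin light chain, was called higher, at 2.71 (SE 0.77), and Ckm, muscle creatine kinase, was at 162 CPM in KO ischemia replicate 4, 24.7 in KO ischemia replicate 3 and 10.8 in KO normal replicate 4, and at most 4.56 CPM elsewhere. Acta1, skeletal actin, was at under 2 CPM in every library.

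Of the 10 genes called higher with no overlap that ranked first by p, 0 were on an adipocyte list and Mrps10 was on the mitochondrial ribosome list. Pla2g7, which breaks down platelet-activating factor, had the smallest p of these. It was at 20.1 to 52.3 CPM (median 32.4) in the high set and at 9.09 to 16.2 CPM (median 10.2) in the low set, with a difference of 1.82 (SE 0.22). Mmp19, a matrix metalloproteinase, differed by 1.83 (SE 0.24), Syp, synaptophysin, by 1.76 (SE 0.25), and Adgrl4, an endothelial adhesion receptor, by 1.43 (SE 0.20). Hfe, which governs iron uptake, was at 16.7 to 36.1 against 6.60 to 14.1 CPM and differed by 1.33 (SE 0.20). Tmem37 was at 2.20 (SE 0.34), Galc, a lysosomal galactosidase, at 1.18 (SE 0.17), Mrps10 at 1.28 (SE 0.20), and Acad11, an acyl-CoA dehydrogenase, at 1.98 (SE 0.32). Tmc5 was at 0.18 to 1.24 CPM in the high set and at most 0.038 CPM in the low set, where its median was 0 CPM.

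Among genes lower without overlap, Mllt11 had the smallest p, at 5.08 to 8.83 CPM against 9.86 to 18.9 CPM, with a difference of −1.13 (SE 0.16). Npas4, an activity-induced transcription factor, was at 5.01 to 15.8 CPM (median 9.69) in the high set and 21.6 to 37.7 CPM (median 24.99) in the low set, a difference of −1.77 (SE 0.27). Myo9b, an unconventional myosin with a RhoGAP domain, was at 90.6 to 285 CPM against 294 to 424 CPM, a difference of −1.29 (SE 0.21). Mylk2, a myosin light chain kinase, differed by −1.47 (SE 0.26), Epha1, an ephrin receptor, by −1.24 (SE 0.24), Wdfy1 by −1.12 (SE 0.18) and A430105I19Rik by −1.06 (SE 0.20). Rfx1, Ptbp2 and Adpgk were at −0.95, −0.91 and −0.68.

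The other mitochondrial and stress lists carried 0 to 3 calls each. Of 11 genes of mitochondrial fission and fusion, the fusion GTPases Opa1 and Mfn2 were called higher, by 1.01 (SE 0.27) and 0.94 (SE 0.25). The other 9 were not called, among them Mfn1, also a fusion GTPase, and Dnm1l, which acts in fission. Gdap1, at under 1 CPM, had the list's largest difference, 3.04 (SE 1.27). Of 21 genes listed for proteins that the study blotted, 3 were called higher, and all 3 act in mitochondria. Cycs, cytochrome c, was at 21.1 to 63.1 CPM against 4.57 to 22.5 CPM and differed by 1.63 (SE 0.38), Cox4i1, of complex IV, by 1.28 (SE 0.30), and Bnip3, a mitophagy receptor, by 1.04 (SE 0.30). Tomm20, of the outer membrane import pore, was at 0.26 (SE 0.14). Of 9 immediate-early genes, 0 were called, with Fos at −0.37 (SE 0.46), Fosb at −1.05 (SE 0.43), Nr4a1 at 0.77 (SE 0.40) and Atf3 at 0.52 (SE 0.40). Among 12 genes of glycolysis and the hypoxia response, Egln3, a HIF prolyl hydroxylase, was at 13.5 to 26.8 against 3.72 to 12.5 CPM and was called higher by 1.43 (SE 0.25). Vegfa was called higher by 1.39 (SE 0.29), and Slc2a1, the basal glucose transporter, lower by −0.62 (SE 0.16). Ldha differed by 1.37 (SE 0.43) and was not called.

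The ischemia comparison, whose groups come from the labels, asks how the artery changes after ischemia, and with all 14 libraries more genes passed when the Ucp1 term stood in the fit. With it, 186 genes (1.05%) were called higher and 123 (0.695%) lower after ischemia by edgeR. Without it, 120 (0.678%) were higher and 72 (0.407%) lower. Of the called genes, 189 were shared, which is 61.2% of those with the term and 98.4% of those without it. The common biological coefficient of variation was 0.476 with the term and 0.528 without it, and the median standard error of the ischemia difference was 0.25 against 0.28. Either count moved by more than 1.5-fold with single libraries. The order of the counts turned without KO normal replicate 1, with 105 calls with the term and 211 without it, and under the replicate block, with 84 and 266. With the term the count ran from 105 to 556 (without WT normal replicate 3, the lane 1 library), and without the term from 67 (without KO normal replicate 2) to 367 (without WT normal replicate 1).

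The genes with the smallest p for ischemia were the same with and without the Ucp1 term, and several of them act in the inflammatory response of vessels. Nfkbia, the feedback inhibitor of NF-kB, rose by 1.78 (SE 0.14, adjusted p = 5.51e-05 by edgeR) with the term and by 1.78 (SE 0.14, adjusted p = 3.85e-05) without it. Icam1, a leukocyte adhesion molecule, rose by 4.15 (SE 0.41) and 4.14 (SE 0.40). Csrnp1 rose by 1.86 (SE 0.21) and 1.85 (SE 0.21), and Pde4b, a cAMP phosphodiesterase, by 1.97 (SE 0.23) and 1.97 (SE 0.23). Sele, endothelial E-selectin, moved somewhat more, rising by 6.33 (SE 0.60) with the term and 5.92 (SE 0.67) without it. These 5 genes were not called between the high-Ucp1 and low-Ucp1 libraries, where Sele differed by 1.43 (SE 0.69) and the other 4 by at most 0.14. The ischemia medians of the fat and mitochondrial lists moved toward 0 with the term, from −0.71 to −0.28 for brown adipocyte and from −0.72 to −0.36 for fatty acid oxidation genes, and 0 genes of either list were called for ischemia in either fit.

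The genotype comparison, KO against WT over both conditions, gave 0 called genes (0%) by edgeR with the Ucp1 term and 0 (0%) without it. At an unadjusted p under 0.05 there were 1297 and 1293 genes, and DESeq2 called 61 and 60. Without WT normal replicate 2 the fit without the term called 31 genes, and the fit with it 0. The genotype difference of 28.0% of all genes moved by more than 0.5 on the log2 scale when the term was added, and its median standard error grew from 0.29 to 0.31. The sign of several list medians turned. Without the term, the KO-minus-WT median was 0.61 for brown adipocyte, 0.24 for shared adipocyte, 0.46 for fatty acid oxidation, 0.51 for citric acid cycle and 0.33 for nuclear oxidative phosphorylation genes. With it, the medians were −0.36, −0.40, −0.34, −0.31 and −0.36. Smooth muscle genes turned from −0.16 to 0.38, whereas lipogenesis went from 0.74 to 0.10. Without WT normal replicate 2, the same medians lay further above 0 when the term was absent, at 1.46 for brown adipocyte, 0.97 for shared adipocyte and 1.12 for fatty acid oxidation genes. They came close to 0 when it was present, at 0.01, 0.15 and −0.06, with smooth muscle genes at 0.00403 and lipogenesis at −0.08. The medians below 0 for brown and shared adipocyte genes therefore rested on that library, and under the other scalings and with any other library left out they kept their signs. Single genes followed, with Cidea at 0.49 (SE 0.58) without the term and −0.44 (SE 0.47) with it, and Kdr at 0.07 (SE 0.41) and −0.79 (SE 0.28). The change of sign between the fits was not itself tested, and with 6 of 8 KO libraries in the high set and 5 of 6 WT libraries in the low set, the part of the Ucp1 difference that belongs to genotype and the part that belongs to the tissue taken cannot be told apart.

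**Figure D5:**
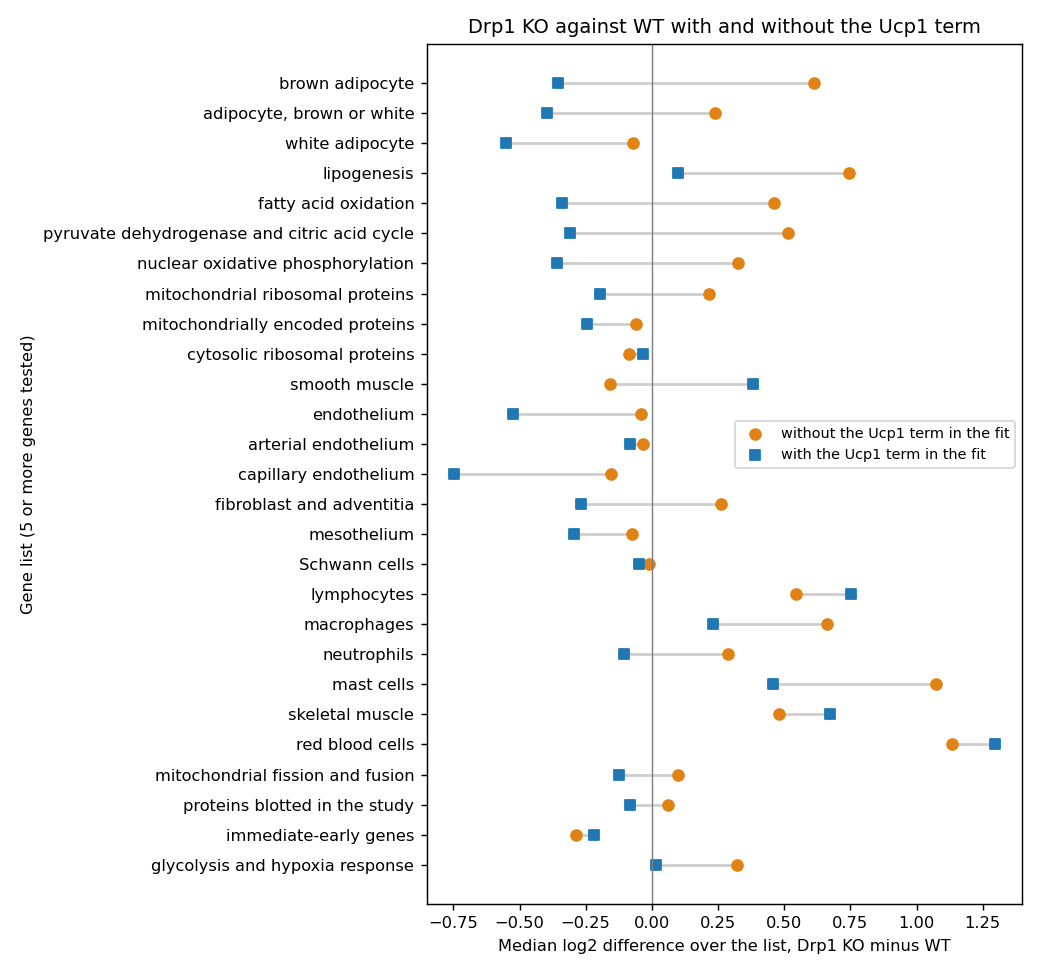
Median log2 difference, Drp1 KO minus WT, over each gene list with 5 or more genes tested, from the fit without the Ucp1 term (circles) and with it (squares). Brown adipocyte genes go from 0.61 to −0.36 and smooth muscle genes from −0.16 to 0.38, and 0 genes were called for genotype in either fit.

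Promoter sequence was examined because many genes of fat and mitochondria are targets of nuclear receptors such as PPAR and the estrogen-related receptors, and smooth muscle genes of serum response factor. The window was the 250 bases before each RefSeq start in GRCm38.p6, and 12114 of the genes tested had an entry. The nuclear receptor core motif AGGTCA, on either strand, stood in the window of 141 of 842 genes called higher (16.7%), 49 of 401 called lower (12.2%) and 13.8% of genes tested, beside 15.8% of all genes with a window. The longer element TCAAGGTCA of estrogen-related receptors, which contains the core motif, was rare. It stood in 5 of the 842 called higher (0.594%), 3 of the 401 called lower (0.748%) and 37 of the 12114 tested (0.305%). The CArG box of serum response factor, which reads the same class of sequence on both strands, stood in 9 windows of genes called higher (1.07%), in 15 of genes called lower (3.74%), in 1.47% of genes tested and in 1.62% of all windows. No test was made of these shares. The shown windows are those of Ucp1 itself, of Adig (adipogenin) and Cox7b (a complex IV subunit), which were called higher, and of Myl9 (a regulatory myosin light chain), which was called lower. The last 3 were picked, after their values were seen, for holding a match. The motif is in capitals, and each run is read 5′ to 3′ on the plus strand and ends before the first annotated transcript base. The run of Myl9 has 206 bases, because GENCODE puts its start upstream of the RefSeq start.
Ucp1, chr8:83290098-83290347: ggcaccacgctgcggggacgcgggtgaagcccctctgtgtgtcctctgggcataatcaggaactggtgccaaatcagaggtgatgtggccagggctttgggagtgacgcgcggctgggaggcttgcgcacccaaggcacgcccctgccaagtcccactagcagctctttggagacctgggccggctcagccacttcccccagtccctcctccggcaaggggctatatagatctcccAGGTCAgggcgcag
Adig, chr2:158502362-158502611: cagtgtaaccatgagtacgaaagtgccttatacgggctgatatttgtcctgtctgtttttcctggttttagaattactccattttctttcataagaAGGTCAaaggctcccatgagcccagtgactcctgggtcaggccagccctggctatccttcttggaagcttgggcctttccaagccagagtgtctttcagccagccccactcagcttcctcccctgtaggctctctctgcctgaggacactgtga
Cox7b, chrX:106015450-106015699: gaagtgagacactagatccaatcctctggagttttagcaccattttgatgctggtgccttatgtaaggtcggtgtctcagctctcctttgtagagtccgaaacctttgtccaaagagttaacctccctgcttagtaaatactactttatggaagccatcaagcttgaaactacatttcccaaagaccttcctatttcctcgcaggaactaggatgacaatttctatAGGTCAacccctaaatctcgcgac
Myl9, chr2:156775214-156775419: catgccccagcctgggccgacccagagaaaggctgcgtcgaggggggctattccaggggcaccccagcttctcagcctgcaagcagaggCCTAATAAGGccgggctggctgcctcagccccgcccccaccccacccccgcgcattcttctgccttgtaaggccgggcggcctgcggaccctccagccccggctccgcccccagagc
In Ucp1 the core motif began 14 bases before the RefSeq start, in Adig 154 and in Cox7b 24 bases before it. Adig was at 25.7 to 174 CPM (median 61.8) in the high-Ucp1 libraries and 6.90 to 45.6 CPM (median 21.9) in the low-Ucp1 libraries, a difference of 1.79 (SE 0.45). Cox7b was at 107 to 379 CPM (median 215) against 40.6 to 197 CPM (median 94.3), a difference of 1.37 (SE 0.36). Myl9 was at 1278 to 4214 CPM (median 3139) against 3155 to 4837 CPM (median 4217), a difference of −0.83 (SE 0.22). A match is a description of the letters and not a bound site.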

How the data were processed

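RNA was taken from the superior mesenteric artery of 14 mice with Trizol, and the labels ask for an RNA integrity number over 8. The authors deposited 1 table of raw counts for each gene symbol, without normalization and with replicates kept apart. The submitters' processing notes name HISAT2 2.0.4 and the mm10 build. How reads were counted, with which annotation and whether by strand, is not given in the sources used here, and values of overlapping, antisense or near-identical genes are uncertain for that reason. The table has 46095 symbols, of which 27727 had a count, and 0 columns of single samples were left unused. The smallest level counted as detectable was 3 counts, or 0.0745 to 0.117 CPM per library (counting error only).

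The counts were fitted with edgeR 4.0.16 (loaded with limma 3.58.1) under R 4.3.3, and DESeq2 1.42.0 served as an alternative test. Genes were kept by filterByExpr with the 4 label groups, libraries were scaled by TMM, and Ucp1 was left out of the fit after scaling, which left 17692 genes. The model had terms for ischemia, genotype and the Ucp1 set. Ischemia and genotype were also fitted without the Ucp1 term. p-values come from edgeR's quasi-likelihood test, two-sided, with Benjamini-Hochberg adjustment, and the limits (FDR under 0.05, fold over 1.5) are the study's. They measure the spread between single mice. No 2 libraries of a group agreed within sampling noise. Of these steps, only the edgeR fit of the high-against-low difference was run on simulated counts.

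The split by Ucp1, the 30 gene lists and the comparisons were chosen with earlier results of these data known. The genes named are Ucp1 and Dnm1l, the 10 called genes in each direction with the smallest p and no overlap, from each list the first gene and the 3 with the largest difference, and the 5 genes with the smallest p for ischemia and for genotype. A gene that falls under this rule is left out here. Other genes were named after their values were seen. Promoters were taken from RefSeq and gene positions from GENCODE M21, both on GRCm38. The alternatives were other tests, scalings, filters, splits and terms, a replicate block and each library left out.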

Additional observations from a re-analysis of the deposited data

Results flagged for a closer look

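Single libraries stood apart from the others of their set or label group in 7 of 122 sets of values examined. The measure was the distance to the nearest other library as a share of the whole range (Dixon's 95% limit). It was taken on log2 of CPM plus 1, while the values below are in plain CPM. Chance flags about 1 in 20 such sets, and several of these values share a library. In the high-Ucp1 set, KO normal replicate 3 had the highest mesothelium sum, at 186 CPM beside 58.3 CPM. KO ischemia replicate 1 lay below the other 3 libraries of its group for Ucp1, at 625 CPM beside 2687 CPM. It was also the lowest of its group for the brown adipocyte sum (1036 CPM beside 3008 CPM), the sum of genes shared by adipocytes (7720 CPM beside 17987 CPM) and the fatty acid oxidation sum (2771 CPM beside 7408 CPM). That library was the only low-Ucp1 member of its group. Its Ucp1 flag therefore restates the split, and its other flags are not separate results. KO normal replicate 4 had the highest lymphocyte sum of the high-Ucp1 set, at 21.1 CPM beside 4.18 CPM, and WT ischemia replicate 1 the lowest red blood cell sum of the low-Ucp1 set, at 4.62 CPM beside 75.7 CPM.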

How the results depend on the processing

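The count of genes called between the Ucp1 sets was 1655, and it was 3135 with DESeq2, 3052 with Ucp1 as a continuous term, 2919 with that and the 4 label groups as terms, 302 with the 4 label groups alone, and 0 within the KO libraries, a setting added after seeing the data. Leaving out single libraries gave 1 to 2264. For ischemia with the Ucp1 term, the 309 calls became 1047 with DESeq2 and 707 with a continuous term, and 105 to 556 with a library left out. Without the Ucp1 term, the 192 calls became 923 with DESeq2 and 67 to 367 with a library left out. For genotype, DESeq2 called 61 genes with and 60 without the Ucp1 term, the continuous term gave 2, and leaving out a library gave 0 to 0 with and 0 to 31 without it. The causes were not tested. The replicate numbers of the labels name separate mice. Deviations from the group means correlated over 0.1 in 11 of 19 pairs of libraries with the same number (median 0.12) and in 9 of 54 pairs with different numbers (median −0.04). Not every same-numbered pair passed 0.1, and the main fit did not take the numbers as pairing, but these values do not settle whether they should be. All 4 libraries numbered 1 were low and both numbered 4 were high. Replicate number and the Ucp1 split thus cannot be told apart for those libraries. With replicate number as a block, 0 genes were called between the Ucp1 sets and 84 for ischemia with the Ucp1 term, and 5 of the 1655 called genes changed sign. The block changed no other call count by more than 1.5 times. No other alternative, and no library left out, changed the sign of a called gene that it tested (1536 to 1655 of them). All of them share libraries with the main fit, so the kept signs are not separate support. The other scalings, filters and fold limit kept the count of genes called between the Ucp1 sets at 1687 to 1945. The 5 highest against the 5 lowest libraries gave 2458. Whether more depth would change these counts was not tested.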
